A study of Drosophila melanogaster with 2 samples.

Results

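The regions described here are the distal peaks in later introns of a ChIP-seq map of gooseberry (gsb) in Drosophila melanogaster embryos. A peak of the authors' combined list belonged to the set when its summit lay over 1 kb from every annotated transcription start site (TSS), inside a gene body, in no exon of any gene and in the first intron of no transcript. This rule uses position alone, and it selected 250 of the 2877 peaks on the main chromosome arms (8.69%), out of 2888 peaks in all. The flies were transgenic and expressed a gsb-eGFP fusion protein, chromatin of whole embryos of 0 to 18 h was precipitated with an anti-GFP antibody (the antibody tag of the labels reads gsb), and there was 1 group of 2 biological replicates. The labels give no promoter for the transgene and do not say how the level of the fusion compares with that of the untagged protein, and whole embryos mix all cell types, so a peak cannot be placed in a cell type. A possible control experiment is named in the labels and was not used here. All comparisons are therefore between regions of the same lists.

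Gooseberry belongs to the Pax family of transcription factors and binds DNA through a paired domain and a homeodomain. In the embryo it is known for its part in segment polarity, where it maintains wingless expression in the epidermis, and for neuroblast identity in the ventral nerve cord. Homeodomains commonly bind sites with a TAAT core, and paired-type homeodomains can bind inverted pairs of it. Introns of developmental genes often hold enhancers, the distal regulatory sequences that transcription factors bind, and the first intron is a frequent place for them.

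The sequences below show some of the words named in the sequence results, with a window of Raf, the gene with the most peaks, that holds none of those marked. The Raf window does hold ACTAGT, which is among the 6-mers named further below. They are windows of 100 bp on either side of the summit, read 5' to 3' on the plus strand of the RefSeq copy of Release 6 (dm6). The peaks in CG11050, in Raf and in rdx are among the strongest of the set, and those in Hr4, waw and Mrtf were chosen from the other peaks that hold the leading 6-mer, ACAGTG. Capitals mark the leading 6-mer ACAGTG and the 6-mers CACTGA and CAGTGC as well as CAGTGG, all of which share the core CACTG on one strand or the other, and the homeodomain word TAATTA. Marked words may overlap.
CG11050 (chr2L:6612608-6612808): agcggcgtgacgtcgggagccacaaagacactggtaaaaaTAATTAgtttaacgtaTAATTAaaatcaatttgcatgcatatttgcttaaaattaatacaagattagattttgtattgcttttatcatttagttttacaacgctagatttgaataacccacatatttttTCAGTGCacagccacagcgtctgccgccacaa
Raf (chrX:2297589-2297789): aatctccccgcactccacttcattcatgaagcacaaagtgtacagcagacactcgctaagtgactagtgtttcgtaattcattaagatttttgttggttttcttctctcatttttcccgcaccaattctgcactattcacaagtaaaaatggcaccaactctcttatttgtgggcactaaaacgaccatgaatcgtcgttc
rdx (chr3R:14012626-14012826): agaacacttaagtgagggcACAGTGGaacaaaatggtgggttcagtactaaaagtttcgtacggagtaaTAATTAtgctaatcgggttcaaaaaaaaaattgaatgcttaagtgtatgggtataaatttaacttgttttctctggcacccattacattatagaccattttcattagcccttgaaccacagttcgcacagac
Hr4 (chrX:1963812-1964012): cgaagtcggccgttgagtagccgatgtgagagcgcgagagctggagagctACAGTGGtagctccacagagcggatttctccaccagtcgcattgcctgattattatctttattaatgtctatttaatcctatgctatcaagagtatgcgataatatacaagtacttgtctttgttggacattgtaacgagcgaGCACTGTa
waw (chrX:21366492-21366692): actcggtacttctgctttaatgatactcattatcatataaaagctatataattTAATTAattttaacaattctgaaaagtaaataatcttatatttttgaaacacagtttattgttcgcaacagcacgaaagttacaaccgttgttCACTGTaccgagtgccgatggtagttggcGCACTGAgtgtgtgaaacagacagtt
Mrtf (chr3L:2727069-2727269): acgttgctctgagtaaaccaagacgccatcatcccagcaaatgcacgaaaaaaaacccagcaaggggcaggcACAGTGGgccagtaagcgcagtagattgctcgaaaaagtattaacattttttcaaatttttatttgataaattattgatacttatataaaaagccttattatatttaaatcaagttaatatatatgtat

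The window of CG11050 held 2 copies of TAATTA and none of ACAGTG. Its other marked stretch, TCAGTGC, holds the core CACTG and crosses the end of the intron at chr2L:6612780. The CG11050 window takes in exon sequence on both sides of the intron, which starts at chr2L:6612641. A further CACTG, in the unmarked word CACTGG, ends just before that start. The Raf window held no marked word. The rdx window held 1 copy of ACAGTG and 1 of TAATTA, and the Hr4 window held 2 copies of ACAGTG. The waw window held 1 copy of ACAGTG, 1 of TAATTA and a further CACTG core. Mrtf, a coactivator of serum response factor, held 1 copy of ACAGTG in its window.

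The signal of a peak, the peak caller's own value in the authors' files, spanned 2.12 to 2401 over the 250 peaks, with a median of 106 and quartiles of 83.1 and 137. The strongest peak of the whole list was in this set. It lay in the second intron of CG11050 and had a signal of 2401 in the combined list, 1337 in the ranked list of replicate 1 and 1048 in that of replicate 2. This intron was only 140 bp long, the summit was 68 bp from an exon, and its distance of 1021 bp to the nearest TSS was the smallest of the set, so the peak was the one nearest to the 1 kb limit. The next strongest, in the second intron of Trl, which encodes the GAGA factor, had a signal of 1141 in the combined list, 645 in replicate 1 and 488 in replicate 2. These were the 2 peaks of the set among the 100 strongest of the list, and no other exceeded 500. Above 300 there were 10, above 200 there were 28 and above 100 there were 140.

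After those came 2 peaks in the second intron of Raf, the MAP kinase kinase kinase that acts below receptor tyrosine kinases, at signals of 498 and 413. A peak in mam, the Notch coactivator mastermind, had 359, and one in rdx, which encodes a Cullin-3 adaptor that targets the Hedgehog effector Ci, had 337. A peak in lncRNA:CR44810 had 332. The zfh1 peak, in a gene for a zinc-finger homeodomain factor of mesoderm and motor neurons, had 323, and that in Hr4, a nuclear receptor gene, had 314. The peak in Dys, the fly dystrophin gene, had 305.5. The rest of the 20 strongest lay in CG8745, CG32795, eIF5B, AdamTS-B, mam again, waw, shn, upSET, hth and Wwox, at signals of 217 to 285. All 20 had their summit in the thresholded lists of both replicates.

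**Figure D1:**
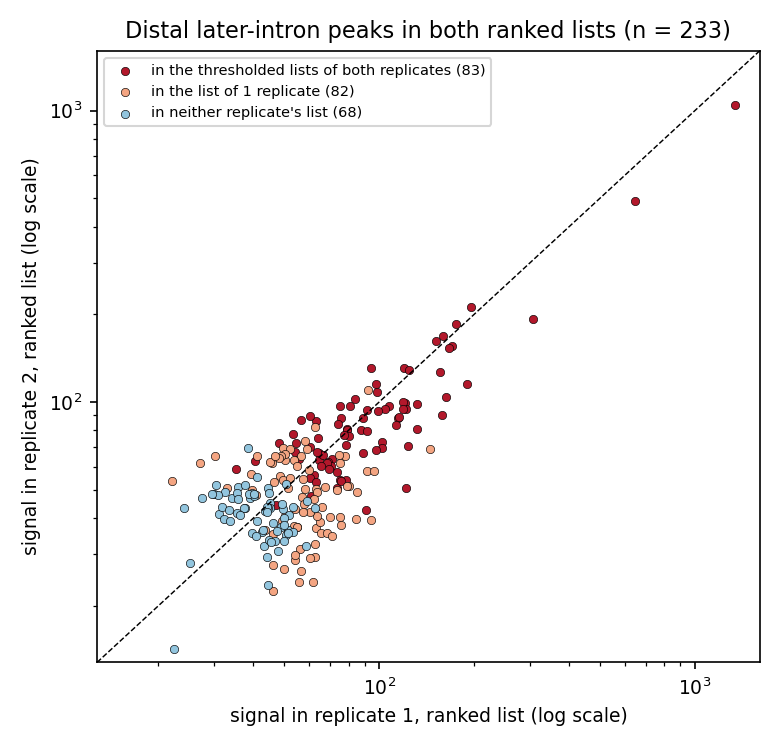
Signal of each distal later-intron peak in the ranked list of replicate 1 (x) and of replicate 2 (y), both on log scales, for the 233 peaks present in both ranked lists. Points are coloured by the number of replicate thresholded lists that hold the summit, and the dashed line marks equal signal. The peaks found in both thresholded lists sit mostly at the upper right, with CG11050 and Trl far above the rest.

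The combined signal and the replicates' lists come from the same libraries, so the signals of peaks in both lists, in 1 or in neither are given as a description. Of the 250 peaks, 83 had their summit in the thresholded lists of both replicates (33.2%, exact 95% interval 27.4 to 39.4, counting error only), 53 in that of replicate 1 alone, 31 in that of replicate 2 alone and 83 in neither. Over all main-arm peaks the share in both lists was 42.6%. The median signal was 170 in the 83 peaks of both lists, 106 in the peaks of 1 list and 81.3 in the peaks of neither. Of the 50 strongest, 47 were in both lists. Of the 50 weakest, 0 were in both and 40 were in neither. The weakest peaks found in both lists were in CG14434 at 85.4, fz at 99.6, eIF5B at 99.7, B4 at 104 and bab2 at 110.3. In the ranked lists, which hold candidate regions as well, 233 peaks had a value in each replicate. The ratio of replicate 1 to replicate 2 had a median of 1.10 with quartiles of 0.852 and 1.41, and 16 peaks differed more than 2-fold. Spearman's rho between the replicates was 0.583 over these 233 peaks, against 0.710 over 497 first-intron, 0.667 over 226 intergenic, 0.162 over 128 exonic distal and 0.777 over 1615 promoter peaks. These correlations are across peaks of the same libraries and describe the lists only.

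**Figure D2:**
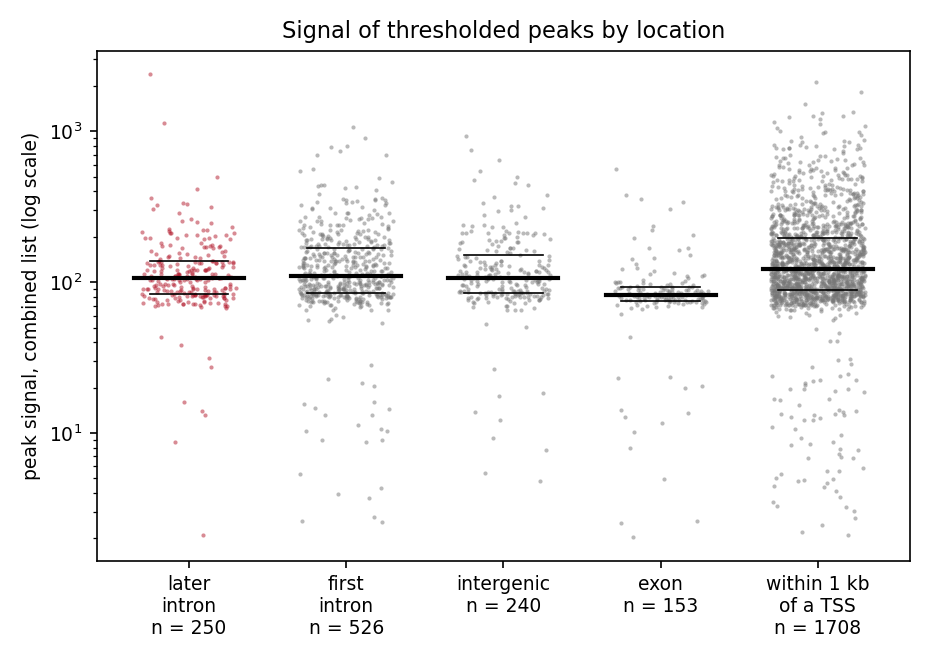
Signal of every main-arm peak of the combined list (log scale) by the location of its summit, with later introns on the left. Points are peaks, thick bars are medians and thin bars are quartiles. The later-intron peaks have a median of 106, between 82.1 in exons and 122 within 1 kb of a TSS.

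Distal peaks in later introns were less often shared by the replicates than distal peaks in first introns. The share in both lists was 33.2% (83 of 250) in later introns, against 43.0% (226 of 526) in first introns (odds ratio 0.660, two-sided Fisher's exact test, adjusted p = 0.0291 over the 6 class comparisons). By the same Fisher's exact test, this call was lost with the conservative list (adjusted p = 0.0625), at a stricter IDR (0.575), beyond 2 kb from a TSS (0.176), with 1 peak per gene (0.0847) and with 50% reciprocal overlap (0.168). It held among peaks above the median signal (Fisher's exact test, adjusted p = 0.00202), over 500 bp from a TSS (0.00443) and with protein-coding genes only (0.0229). Against intergenic distal peaks, 91 of 240 of which were in both lists (37.9%), the odds ratio was 0.814 and did not pass (Fisher's exact test, adjusted p = 0.449). The share of peaks above the median signal of the list, 112, was 44.0% in later introns, 47.5% in first introns and 45.4% in intergenic sequence, and neither difference passed (Fisher's exact test, adjusted p = 0.476 and 0.785). Peaks called from the same libraries do not replicate one another, so each p describes the lists, and the read numbers are unknown.

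The later introns held 8.69% of the peaks in 21.3% of the main arms. Bases that meet the position rule make up 28.5 Mb and held 8.76 peaks per Mb (exact Poisson interval 7.71 to 9.91, counting error only). The density was 26.5 per Mb in distal first introns, 7.13 per Mb in distal intergenic sequence, 7.56 per Mb in distal exons, 54.1 per Mb within 1 kb of a TSS and 21.5 per Mb over the main arms. Of the 24264 candidate regions in later introns, the regions of the authors' ranked list before thresholding, 250 passed (1.03%), against 526 of 20877 in first introns (2.52%, odds ratio 0.403, Fisher's exact test, adjusted p = 2.59e-33) and 240 of 27281 in intergenic sequence (0.880%, odds ratio 1.17, adjusted p = 0.168). In distal exons 0.539% of the candidates passed. Over all candidate regions of the main arms, 2.07% passed.

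Later-intron peaks also lay farther from TSSs, at a median of 6154 bp, against 2972 bp for first-intron and 3712 bp for intergenic distal peaks. Pass rates were therefore also compared in 2 ranges of distance, an alternative chosen after the values were seen, with p-values adjusted over the 2 comparisons at each range. Between 1 and 5 kb from a TSS, 1.13% of later-intron candidates passed, against 3.25% in first introns (Fisher's exact test, adjusted p = 4.09e-25) and 1.15% in intergenic sequence (adjusted p = 0.949). Beyond 5 kb, 0.969% of later-intron candidates passed, against 1.53% in first introns (Fisher's exact test, adjusted p = 2.36e-04) and 0.592% in intergenic sequence (odds ratio 1.64, adjusted p = 3.66e-04). The lower rate than in first introns was thus found at both ranges of distance. Against intergenic sequence the rate was higher beyond 5 kb, and between 1 and 5 kb the difference did not pass. The ranges do not match distance fully, since 3700 of the 15273 later-intron candidates beyond 5 kb lay beyond 20 kb, against 1023 of 8875 in first introns and 2366 of 13178 in intergenic sequence. Whether the odds ratios differ between the ranges was not tested.

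**Figure D3:**
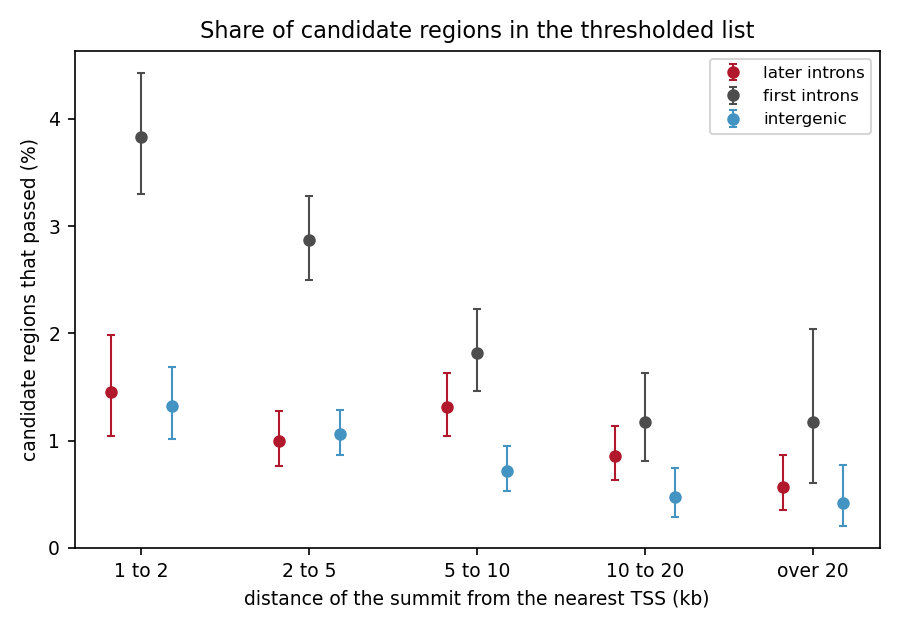
Percent of candidate regions that passed the threshold, by distance of the summit from the nearest TSS (kb), for later introns, first introns and intergenic sequence. Bars are exact 95% binomial intervals for counting error. In later introns the rate was 1.46% at 1 to 2 kb and 0.568% beyond 20 kb, against 3.84% and 1.17% in first introns.

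Fewer later-intron summits lay near an exon than candidate summits did. A summit within 200 bp of an exon was found in 9 of 250 later-intron peaks (3.60%), against 3837 of 24014 later-intron candidates that did not pass (16%, odds ratio 0.196, Fisher's exact test, adjusted p = 1.80e-09 over 2 position comparisons). The 9 include the CG11050 and zfh1 peaks, which were among the 10 strongest, and the zfh1 summit lay 40 bp from an exon. The median distance to an exon was 2088 bp, against 1734 bp for the candidates. Introns of at least 10 kb held 58.0% of the peaks, against 55.3% of the candidates (Fisher's exact test, adjusted p = 0.407). The second intron was the usual place. It held 164 peaks (65.6%), against 45.7% of the candidates, while 41 peaks lay in intron 3 and 45 in intron 4 or later. The last intron held 11.2%, against 10.9%. No peak lay in an annotated transposable element, where 0.970% of the candidates lay. These last 3 comparisons are descriptions and were not tested.

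The nearest TSS belonged to the host gene for 139 peaks (55.6%) and to another gene for the other 111. At the 1 kb limit the nearest peaks outside it, besides CG11050, were in Roc2 at 1025 bp with a signal of 203 and Zasp66 at 1112 bp with 197. Among peaks that met the other position rules, the nearest just within 1 kb, which are not members, were in SNF4Agamma at 983 bp with a signal of 86.2, CG42258 at 980 bp with 103 and CG1677 at 955 bp with 118.

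The 250 peaks fell in 177 host genes, of which 125 held 1 peak, 39 held 2 and 13 held 3 or more. Host genes were protein-coding for 242 peaks. Each peak counted for 1 host only, though 21 of the 250 lay in introns of 2 or more genes. Sequence shared by genes counted toward the territory of each. The density over all genes given below, 8.42 peaks per Mb, is therefore under the 8.76 given above. Of the 6141 genes with any distal later-intron sequence, 2.88% were the host of a peak. That share was 17.0% (110 of 647) among genes with at least 10 kb of it. The territory of a gene thus moves with its chance of holding a peak, and it is given beside the gene groups below.

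Raf held 7 peaks, more than any other gene, all in its second intron of 43637 bp. The strongest, at chrX:2297573-2297830, lay 2223 bp from the gene's start and scored a signal of 307 in replicate 1, with 193 in replicate 2. The second, at chrX:2300580-2300798, reached 196 in replicate 1 and 211 in replicate 2. The others had signals of 159.6, 146, 106, 101 and 74.0 in the combined list. By signal, the 3 strongest were in both replicate lists, the next 3 in 1 list and the weakest in neither. Of the 7, 6 lay within 11064 bp of the gene's start and the last at 23037 bp.

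The gene rdx held 5 peaks in its second intron of 52543 bp. The strongest, at chr3R:14012644-14012810, reached 169.8 in replicate 1, with 156 in replicate 2, and both thresholded lists held it. The other 4 had combined signals of 74.7 to 103 and were in 1 list or neither. The nuclear receptor gene ftz-f1 held 4 peaks at 73.3 to 119.7, none of them in both lists, and px, a wing-vein gene, held 4 at 38.3 to 87.0, of which 1 was in a replicate's list.

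Among genes with 3 peaks, mam had 2 in both lists, at 359 and 248, and another at 88.1 in neither. The others with 3 were Zdhhc8, msn, a Ste20-type kinase of JNK signalling, luna, a Krüppel-like factor, kirre, an immunoglobulin adhesion protein of myoblast fusion, B4, MSAmiP, CG12535 and puc, the phosphatase that limits JNK signalling. Their strongest peaks ranged from 96.5 in puc to 197 in Zdhhc8. The 3 peaks assigned to kirre lay 265526 to 356868 bp into a gene of 394149 bp. A further 2 peaks, at signals of 261 and 168, lay in introns of both CG32795 and kirre. They were assigned to CG32795, which has the shorter intron there, and are not counted for kirre. Peaks in 1 intron can overlap, and 12 of the 250 overlapped another member, among them 2 of the 3 in puc.

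**Figure D4:**
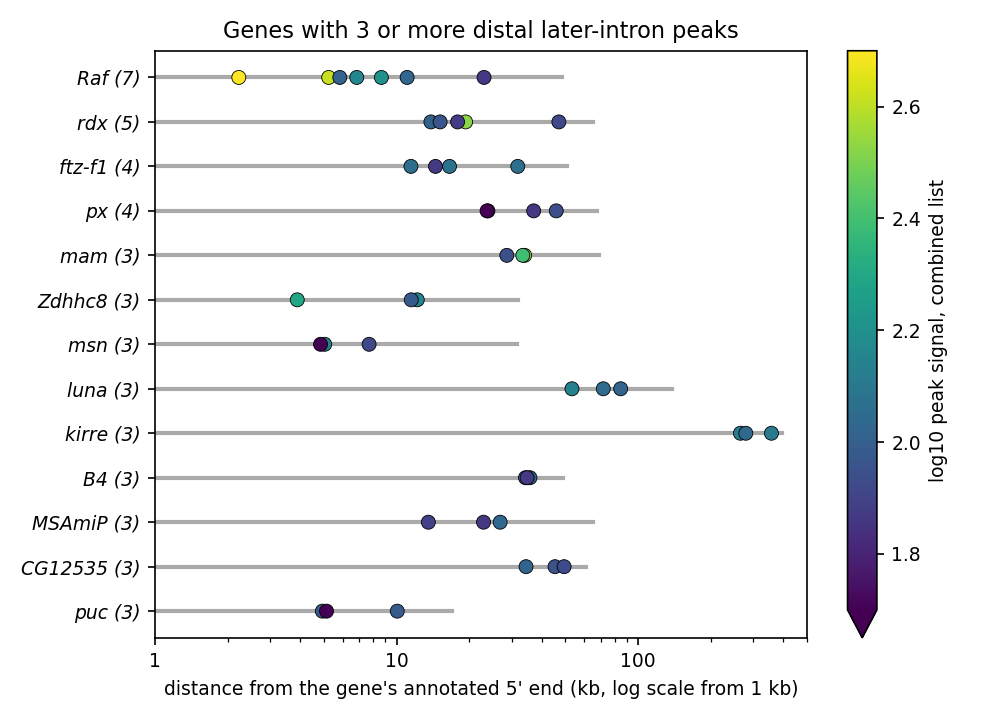
Position of each distal later-intron peak assigned to the 13 host genes with 3 or more, as distance from the gene's annotated 5' end (kb, log scale). Grey lines are gene bodies, counts are in brackets and colour gives the log10 of the combined signal. The strongest of the 7 Raf peaks lies nearest to the gene's start, at 2223 bp, while the peaks assigned to kirre lie at 265526 bp and beyond.

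The gsb gene has 0 bp of distal later-intron sequence and could hold no member. Its neighbour and paralogue gsb-n has 9385 bp and held 1 peak, at chr2R:25045219-25045582 in intron 3, 6930 bp from its start. It had a signal of 54.1 in replicate 1, 28.7 in replicate 2 and 89.9 in the combined list, below the median of the set, and was in 1 replicate's list. Of the 6 genes of the pax list with such sequence, gsb-n was the only one with a peak.

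Gene lists were described by counts against the 2.88% of all genes, with no test. Among signalling pathways, the Dpp and activin list had peaks in 4 of 19 genes with later-intron sequence: shn, a zinc-finger factor of the Dpp response, at 224, Dad, the inhibitory Smad, at 173, the kinase gene nmo at 125 and cv-2, a BMP-binding protein, at 101, with 8 peaks in all. The EGFR and FGF list had them in 3 of 22, Raf, the Ets factor pnt at 144 and the FGF ligand ths at 126, with 10 peaks in all, 7 of them in Raf. The Notch list had 2 of 15, mam and the receptor N at 181. The segment polarity, Wingless and Hedgehog list, the one nearest to the known role of gsb, had 3 of 32: the Wingless co-receptor arr at 211 and the receptors fz at 99.6 and fz2 at 92.3. The median territory per gene was 1.72 kb in the Dpp, 1.88 kb in the EGFR and FGF, 0.902 kb in the Notch and 1.55 kb in the segment polarity list, against 0.365 kb over all genes.

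Among transcription factors and chromatin proteins, the nuclear receptor list had 4 of 20 genes with a peak (Hr4, EcR at 133, ftz-f1 at 119.7 and Eip75B at 79.4), with 9 peaks and a median territory of 14.8 kb. The gap, pair-rule and Hox list had 1 of 15, the homeodomain cofactor hth at 222, at a median territory of 9.24 kb, and the neuroblast and neuron identity list had 1 of 25, zfh1, at 7.36 kb. The Polycomb, trithorax and insulator list had 2 of 29, Trl and Psc at 177, at a median territory of 0.322 kb.

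Among effector genes, the axon guidance and adhesion list had 10 of 60, with a median territory of 20 kb, led by ed at 195, side at 174, dlp at 157, kirre and NetB at 133 each and Nrg at 104. The ion channel and synapse list had 2 of 50 (Pka-C1 at 196 and dnc at 86.6) at a median territory of 11.9 kb. The mesoderm and muscle list had 5 of 41 (zfh1, Zasp66 at 197, Zasp52 at 133, kirre and how at 129) at a median territory of 3.90 kb, the RNA-binding list 5 of 25 at a median territory of 19.5 kb, led by how and Rbfox1, and the cytoskeleton list 6 of 36, led by spir at 133, at 3.61 kb. The epidermis and trachea list had 2 of 24 (shn and fz) at a median territory of 3.37 kb and the glia, gut and hemocyte list 1 of 20 (pnt) at 1.59 kb. The ribosomal protein and glycolysis list, genes expressed everywhere, had 0 of 8, with 0.00409 Mb of territory in all, which is too little for the 0 to say anything of the list. Per Mb of territory there were 57.9 peaks in the Dpp list, 44.5 in the EGFR and FGF, 29.4 in the nuclear receptor, 24.5 in the Polycomb, 23.3 in the Notch, 21.9 in the glia, 21.6 in the pax, 17.1 in the cytoskeleton, 15.3 in the segment polarity, 13.8 in the mesoderm, 11.4 in the epidermis and 9.33 in the gap and Hox list, against 8.42 over all genes. Below that were the RNA-binding list at 7.54, axon guidance at 6.41, neuroblast identity at 3.28 and ion channels at 1.97. Many of these densities rest on 1 gene. Without Raf the EGFR and FGF list had 15.4 per Mb, without mam the Notch list had 8.02, without ftz-f1 the nuclear receptor list had 18.2, without Trl the Polycomb list had 12.7, without shn the epidermis list had 3.91 and without Pka-C1 the ion channel list had 0.996. The glia, pax, gap and Hox and neuroblast lists had 0 without their 1 gene with a peak. The Dpp list had 45.8 without shn.

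The windows of the later-intron peaks were poorer in G and C than those of the candidates that did not pass, 38.8 ± 8.04% against 45 ± 6.62% (SD, n = 250 and 24014 windows of 201 bp). The 50 strongest averaged 35.4% and the 50 weakest 43.1%. The mean was also low in the other peaks, at 38.2% in first-intron, 39.6% in intergenic and 39.7% in all main-arm peaks. GC content moves with every sequence comparison below, so the motifs and 6-mers were also tested within 5 strata of GC. The strata were cut at quantiles of both sets of windows pooled, so GC content can still differ within a stratum.

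Known motifs, 16 in all, were searched on both strands within 100 bp of the summit. Upstream and downstream of a summit refer, here and below, to the plus strand and not to the strand of the host gene. The homeodomain word TAATTA was in 35 later-intron windows (14.0%, exact interval 9.95 to 18.9), against 11.3% of the candidates (Fisher's exact test, adjusted p = 0.450), and in 13.5% of all main-arm peaks. Its odds ratio was 1.28, and the direction turned within GC strata (0.916, not past the threshold by the Mantel-Haenszel test). The inverted homeodomain pair TAATNNATTA was in 5 windows (2.00% against 0.754%, adjusted p = 0.341), TAATNNNATTA in 6 (2.4% against 1.2%, Fisher's exact test, adjusted p = 0.450) and the paired-domain core GTCACGC in 2 (0.800% against 1.23%, adjusted p = 1). Within GC strata their odds ratios were 1.88, 1.44 and 0.882, and none passed by that test. Of the 16 motifs 6.25%, that is 1, passed: GCCAT, the core of the Polycomb-recruiting protein Pho, was in 27.6% of the peaks, against 43.1% of the candidates (odds ratio 0.503, Fisher's exact test, adjusted p = 9.96e-06), and in 36.8% and 35.6% of windows 500 bp up and downstream of the same summits. Against either set of shifted windows 0 of 16 motifs, and so not GCCAT, passed by an exact McNemar test. Within GC strata, where the Mantel-Haenszel test takes the place of Fisher's exact test, the odds ratio of GCCAT against the candidates was 0.633 (adjusted p = 0.0243). GCCAT was in 28.5% of first-intron, 32.5% of intergenic and 29.4% of all main-arm peaks. More of the candidate than of the peak summits lay within 200 bp of an exon, and neither test matched this.

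The other 11 motifs did not pass. The DREF element TATCGATA, the M1BP site GGTCACACT and the grainy head site AACCGGTT were in 0 of 250 windows, which allows a share of up to 1.2% at 3 counts (exact upper limit 1.46%), against 0.292%, 0.0833% and 0.171% of the candidates, with an adjusted p of 1 each by Fisher's exact test. The GAGA repeat GAGAGAG was in 1.60%, against 2.97% of the candidates. The Zelda site CAGGTAG (2.00% against 1.05%), the GATA site AGATAAG (3.60% against 1.93%), the AP-1 site TGANTCA (4% against 3.59%), the pangolin site CTTTGAT (3.60% against 3.69%), the POU site ATGCAAAT (3.60% against 4.21%) and the E-boxes CAGCTG (6.80% against 9.48%) and CATATG (6% against 5.85%) had adjusted p-values from 0.341 to 1 by Fisher's exact test. Within GC strata the 11 had adjusted p-values from 0.667 to 0.968 by the Mantel-Haenszel test, and the odds ratios of CATATG and of the AP-1 site turned to 0.904 and 0.987. Against first-intron and against intergenic distal peaks, 0 of 16 motifs passed, and 0 of 16 in either comparison were at an unadjusted p under 0.05. With 250 windows a difference in a rare motif could be missed. A match is a match of letters and not a bound site.

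Every 6-mer, counted together with its reverse complement, was tested in the same windows. Of these, 330 (15.9%) passed against the candidates, 196 higher in the peaks, with a mean GC content of 21.9%, and 134 lower, with a mean of 64.3%. Within GC strata 33 passed, 30 higher and 3 lower, and all 33 were among the 330. The 30 include words of A and T alone, such as AAAATA (52% against 27.7%) and AAATAT (48% against 24.4%). By ratio of shares the highest 10, at 2.54 to 3.06 times the candidates, were ACTAGT (5.2% against 1.7%), ATAGTA (13.2% against 4.53%), ACTGTA (16.8% against 5.87%), AGGGTA (11.6% against 4.26%), TAGTAA (12.4% against 4.6%), TACCTA (9.2% against 3.47%), ACAGTG (20.8% against 8.04%), TCTAAA (20.4% against 7.96%), GGTATA (10.8% against 4.24%) and GTGCAC (12.8% against 5.04%). Of these, 4 did not pass within GC strata, namely ACTAGT and TAGTAA as well as TACCTA and GGTATA. The lowest were CGGACG (0% against 3.41%), CGGTCC (0.4% against 3.21%), CGAGGA (1.2% against 7.82%), AGGACA (1.6% against 9.71%) and GACCGA (0.8% against 4.71%), of which AGGACA passed within GC strata.

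The 6-mer with the lowest p within GC strata was ACAGTG, and this choice was made after the values were seen. It was in 52 of 250 later-intron windows (20.8%), against 8.04% of the candidates (odds ratio 3.0, Fisher's exact test, adjusted p = 6.97e-08, and 2.93 within GC strata, adjusted p = 4.10e-09). The same word was in 24.9% of first-intron, 19.6% of intergenic and 19.9% of all main-arm peaks. CAGTGG (20% against 11.9%), CACTGA (19.6% against 9.07%) and CAGTGC (19.2% against 10.8%) share its core and passed both ways. The core CACTG was in 122 of 250 windows (48.8%), against 33.2% of the candidates, and in 24.0% and 31.6% of the windows 500 bp up and downstream. It was in 57.2% of first-intron, 55.0% of intergenic and 48.8% of all main-arm peaks. The shares of the core were not tested. Each summit window was also set against the window 500 bp upstream on the plus strand by an exact McNemar test. Of all the 6-mers 2 passed, ACAGTG and CACTGA. Against the window 500 bp downstream 1 passed, CAGTGC. All 3 hold the core CACTG.

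In later introns the word was most frequent to the side of the summit. In bins of 50 bp, ACAGTG occurred at 9.20 per 100 later-intron peaks between 100 and 50 bp to the left of the summit (23 copies) and at 7.60 between 100 and 150 bp to the right (19 copies). The 2 bins next to the summit had 4 and 4.4 per 100 (10 and 11 copies), against 2.19 and 2.21 in the candidates, which had 1.91 to 2.28 over the inner 150 bp on either side. The bins were not tested against each other. Over all main-arm peaks the 2 humps were at 7.54 and 7.65 per 100, between 50 and 100 bp on each side. Of 54 copies with their flanks inside the window, 57.4% were followed by G, against 34.1% in the candidates and 47.8% in all peaks. G was the second base before the word in 50%, against 29.5% in the candidates and 46.2% in all peaks. The base just before was C in 48.1%, against 33.1% and 40.1%, and T in 35.2%, against 20.4% and 35.3%. These flanks were not tested. The median signal was 105 in the 52 peaks with the word and 107 in the 198 peaks without it, and 34.6% and 32.8% of them were in both replicate lists, which was not tested.

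**Figure D5:**
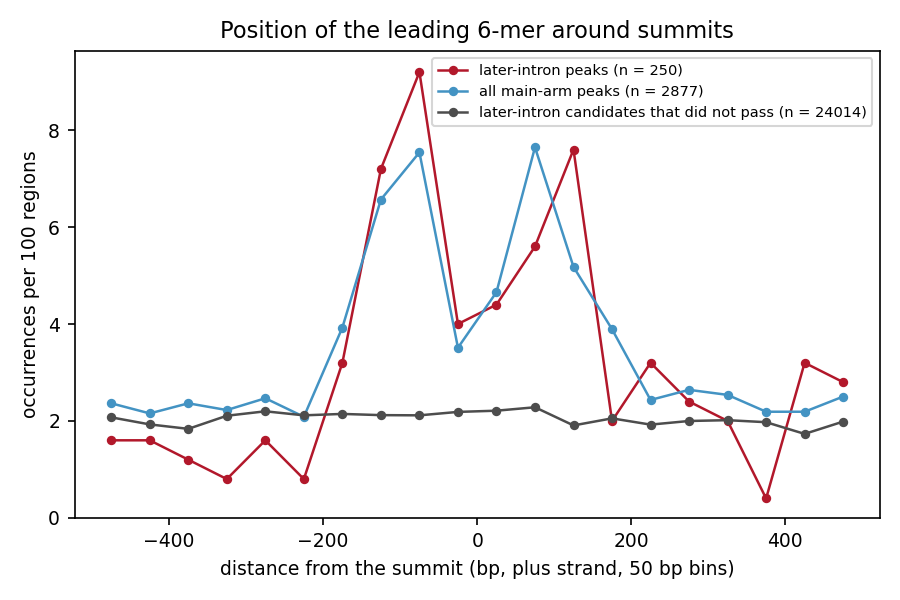
Occurrences of the leading 6-mer on either strand per 100 regions, in bins of 50 bp of distance from the summit, for the 250 later-intron peaks, all 2877 main-arm peaks and the 24014 later-intron candidates that did not pass. The peaks show a hump on each side of the summit, at up to 9.20 per 100 regions in later introns, and the candidates are flat near 2.

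By chromosome arm, X held 60 later-intron peaks (11.8 per Mb of territory, exact Poisson interval 9.03 to 15.2), 3L 62 (10.9 per Mb), 2R 43 (8.67), 3R 57 (6.93) and 2L 28 (6.68, interval 4.44 to 9.65). Chromosome 4 held 0 peaks in 12 candidate regions. The pass rate of candidates was 1.2% on X, 1.36% on 3L, 1.03% on 2R, 0.839% on 3R and 0.757% on 2L. These values were not tested against each other.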

How the data were processed

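ChIP-seq of a gsb-eGFP fusion was carried out on whole embryos in 2 biological replicates. The authors deposited ranked and thresholded peak lists for each replicate and for both together, with a conservative joint list, on dm6, per the labels. The deposited signal is the peak caller's own value, on a scale not given in the sources used here. The deposited score rises with reproducibility, is capped at 1000 and was at least 830 in the thresholded list, which corresponds to an irreproducible discovery rate (IDR) of 0.01. The −log10 values of the IDR in the deposited ranked list were used for a stricter threshold. No aligner or peak caller is named in the sources used here, and the depth is unknown.

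Summits (start plus offset) were classed with the Ensembl release 115 annotation without transposable-element genes, whose coordinates matched RefSeq Release 6 for 17680 of 17682 genes. The host of a summit is the gene with an intron over it, protein-coding genes first and then the one with the shortest such intron, and the intron number is that of this intron. A peak counted as found in another list when its summit lay in a peak of that list. Replicate signals come from each replicate's ranked list. Shares were compared by two-sided Fisher's exact tests with Benjamini-Hochberg adjustment over 6 class comparisons, 2 position comparisons, 16 motifs or all 6-mers, at a threshold of 0.05. Of 605 symbols in 17 gene lists, 6 did not match the annotation. The members, lists and motifs were chosen with earlier results of these data known. Named genes are the hosts of the 20 strongest peaks, hosts of 3 or more, up to 6 of each list, the 5 weakest peaks in both lists, the 3 peaks nearest the 1 kb limit on each side, gsb and gsb-n. Alternatives were the conservative list, each replicate's own list, peaks above the median signal, an IDR of 0.001, TSS limits of 500 bp and 2 kb, protein-coding genes only, 1 peak per gene, 50% reciprocal overlap, windows of 50 and 150 bp, GC strata and shifted windows. Python 3.11.15, NumPy 2.4.6, pandas 2.3.3, SciPy 1.17.1 and Matplotlib 3.10.9 were used. Intervals are exact at 95% and cover counting error only.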

Additional observations from a re-analysis of the deposited data

How the results depend on the processing

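Of 133 values recomputed under the alternatives, 99 kept their direction and their side of the threshold or, for counts, stayed within 1.5 times. The 99 include motif counts against first-intron and intergenic peaks, which were 0 throughout. They also include the motif count at an IDR of 0.001, where the motif called changed. The number of later-intron peaks was 151 in the list of replicate 1, 133 in that of replicate 2, 110 above the median signal and 76 at an IDR of 0.001. The lower share in both lists than in first introns no longer passed with the conservative list (odds ratio 0.686), at an IDR of 0.001 (0.582), beyond 2 kb (0.731), with 1 peak per gene (0.647) and with reciprocal overlap (0.733). It still passed above the median signal (0.380), over 500 bp from a TSS (0.630) and with protein-coding genes only (0.657). Against intergenic peaks the odds ratio of this share turned to 1.01 with 1 peak per gene. The share above the median signal against first introns passed in the lists of replicate 1 (odds ratio 0.584) and replicate 2 (0.585) and above the median signal (0.544), and was 1.03 beyond 2 kb. Against intergenic peaks it was 1.10 beyond 2 kb and 1.26 with 1 peak per gene. The pass rate against intergenic candidates had an odds ratio of 0.987 at 1 to 5 kb and 1.64 beyond 5 kb. Introns of at least 10 kb had odds ratios of 0.903 in the list of replicate 1 and 1.28 in that of replicate 2. The odds ratios were 0.996 at an IDR of 0.001 and 0.914 with 1 peak per gene, and none of these passed the threshold. The cause was not tested.

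Motif calls against candidates numbered 2 in the list of replicate 1, 1 in that of replicate 2, 2 with windows of 150 bp (the GATA site joined Pho) and 0 with either shifted window. At an IDR of 0.001 the 1 call was TAATNNATTA in place of Pho, and in the list of replicate 1 both passed. The 6-mer calls numbered 177 in the list of replicate 1 and 112 in that of replicate 2. They numbered 134 above the median signal, 60 at an IDR of 0.001 and 208 beyond 2 kb. With windows of 50 bp there were 172, within GC strata 33, upstream 2 and downstream 1. Smaller lists and paired windows hold fewer regions. Results on both lists have no value without a replicate, and pass rates none with 1 peak per gene. No paired analysis was possible because there is 1 group. Depth is unknown, so a region missing from a list cannot be told from one read too thinly.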

Other observations

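Of the 250 later-intron peaks, 9 had a signal of at most 43.1, while every other one had at least 67.0. They lay in mbl (2 peaks), px, puc, Mp, CG43373, caps, msn and CG4374, and 7 of the 9 overlapped another later-intron peak. The weakest, in CG4374, had a signal of 2.12 and no value in either replicate's ranked list, as was the case for 3 of the 250. The conservative list held 3 of the 9. These peaks were singled out after their values were seen.

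In the ranked list, 6 later-intron candidate regions reached the lowest score of the thresholded list, 830, and were not in it. They were counted among the candidates that did not pass.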
